A study of Mus musculus with 24 samples.

Results

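The question here was which genes responded to inflammatory cytokines differently in a mouse β cell line made to overexpress miR-146a-5p and in its scrambled control. For each gene the difference between both responses, the interaction, was taken as the log2 change from OE to OE+Cy minus the log2 change from Scr to Scr+Cy. It used 16 of the 24 RNA-seq libraries of the series, 4 in each of 4 groups. MIN6 cells, a mouse β cell line from an insulinoma, had been transduced with lentivirus, selected with puromycin and grown from single clones. The Scr line carried the miRZip-000 scrambled hairpin with copGFP, and the OE line carried a shMIMIC miR-146a-5p construct with Turbo RFP, on another vector backbone. Scr+Cy and OE+Cy cells had spent 24 h with IL-1β at 5 ng/ml, IFNγ at 100.0 ng/ml and TNFα at 10 ng/ml, while Scr and OE cells had none. Another line, ZIP, expresses an antisense inhibitor of miR-146a-5p from the same vector family as Scr, and its 8 libraries with and without the same cytokines were set beside the results, since the interaction takes no difference from them, although all 24 libraries shared the scaling and the estimate of spread. Line, clone and, for OE, vector backbone cannot be told apart, and the microRNA itself was not measured in these libraries. The labels do not say that the 4 numbered libraries of a group (1 to 4) came from separate cultures, so the p values measure the spread between these libraries, which may be technical.

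IL-1β signals through MyD88, the IRAK kinases and TRAF6, and TNFα through its own receptor complex, to the transcription factor NF-κB, and IFNγ signals through JAK kinases and STAT factors, which together switch on chemokines, antigen presentation, guanylate-binding proteins and inducible nitric oxide synthase. In β cells this program is known to lower insulin gene expression, to load the endoplasmic reticulum (ER) and to lead to apoptosis. miR-146a-5p is itself induced by NF-κB, and Irak1 and Traf6 are its best known targets. A microRNA recognises targets mainly through its seed, shown in capitals (bases 2 to 8) in the RefSeq sequence, which lies at chr11:43374435-43374456 on the minus strand of GRCm38.p6.
mmu-miR-146a-5p: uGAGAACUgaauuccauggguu

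The libraries held 26657795 to 37168207 reads assigned to genes, with a median of 30701018. Beta cell markers were abundant, with a summed level of 8 genes of 15675 to 21427 CPM (the share of a library's reads, after TMM scaling) in Scr and 37830 to 41579 CPM in OE. The 5 duct markers summed to 3.28 to 7.53 CPM in Scr and to 405 to 500.4 CPM in OE, with Krt19 at 0 in Scr and Sox9 at 0 in OE. Macrophage markers summed to at most 4.62 CPM and lymphocyte markers to at most 0.496 CPM in the 16 libraries. Scr+Cy library 1 stood apart, with 202 genes at 1 CPM or more and over 5 times the level in any other Scr+Cy library, among them the collagen gene Col1a1 at 16.3 CPM. Of these 202 genes, 4 were called in the interaction, compared with 20.0% of all genes. Scr library 1 held 54 such genes, of which 0 were called. Genes of this kind have a wide spread within their group, which makes a call less likely. These counts therefore do not show that the libraries left the other results unchanged.

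At an adjusted p under 0.05 (edgeR quasi-likelihood test, Benjamini-Hochberg), the response to cytokines differed between OE and Scr for 3537 of 17696 genes (20.0%), being higher in OE (above 0) for 1706 (9.64%) and lower (below 0) for 1831 (10.3%). Of the 3537 genes, 1517 differed by at least 1.5-fold. Cytokines changed 3151 genes in Scr (17.8%, with 7.33% falling), 7884 in OE (44.6%) and 4674 in ZIP (26.4%). Over the 11683 genes with at least 1 CPM in all 4 groups, the median size of the response was 0.11 in Scr, 0.15 in ZIP and 0.23 in OE on the log2 scale. Of the 2444 genes changed in Scr among them, 2184 moved in the same direction in OE and 1462 of these moved further there. Libraries of a number moved together within each line. A fit of only the 16 libraries with a term for each line and number, called the block within line from here on, called 5482 genes, 3482 of the 3537 among them, where the same 16 libraries without the block gave 3451 genes.

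The called genes fell into 5 classes by which of the responses passed the same threshold. In 633 genes both lines responded in one direction and OE by more (amplified, 17.9% of those called), and in 49 both responded in one direction and OE by less (blunted, 1.39%). In 94 genes both lines responded in opposite directions (reversed, 2.66%). Cytokines changed 2460 genes in OE alone (gained, 69.6%) and 196 in Scr alone (lost, 5.54%), and 105 genes passed the threshold in neither line. Here and below, alone means that the response of the other line missed the threshold, not that it was absent. A class uses the libraries of the test itself, so its values are a description. The block within line gave 1372 amplified, 126 blunted, 389 reversed, 3048 gained and 429 lost genes, where the 16 libraries without the block gave 620, 50, 89, 2397 and 186. Close to the threshold of the interaction were Rims2 just inside, at an adjusted p of 0.0499 and an interaction of 0.23, and Ppp3cb just outside, at 0.0501 and −0.23.

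**Figure D1:**
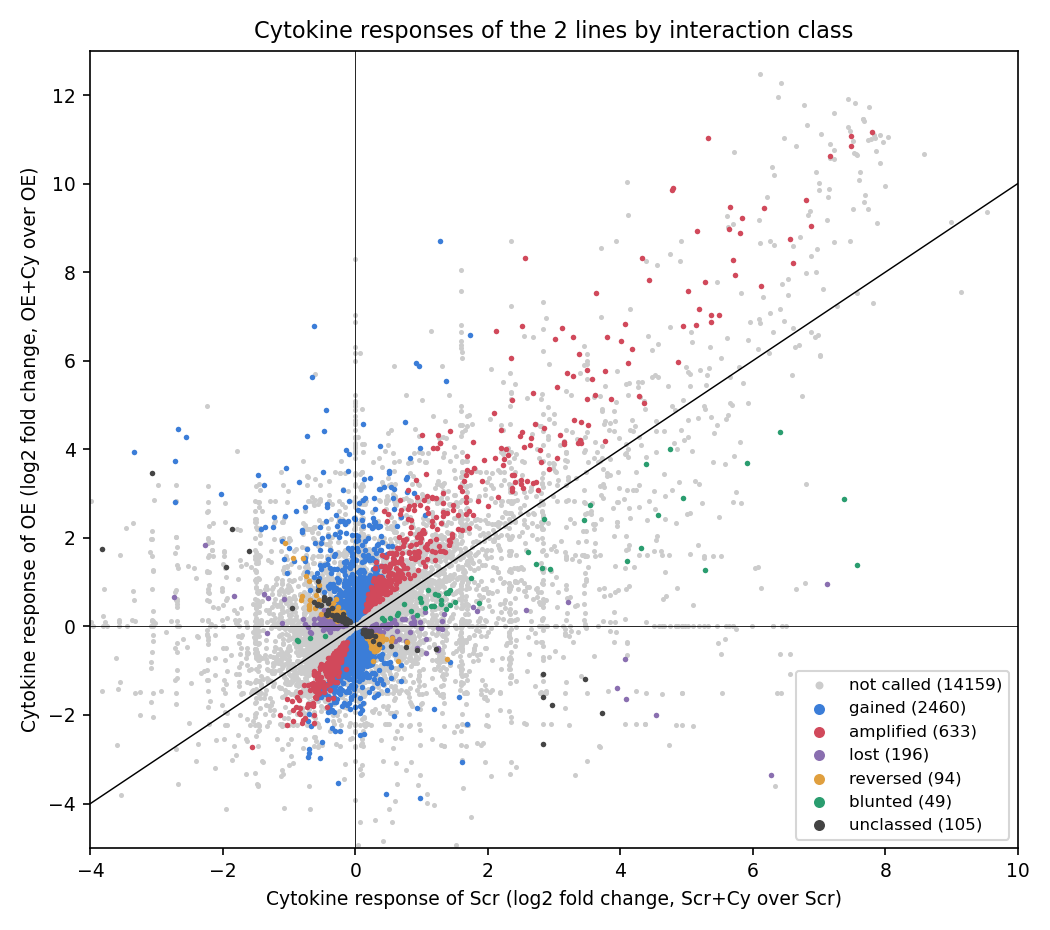
Each point is a gene, with the log2 fold change of Scr+Cy over Scr on the horizontal axis and that of OE+Cy over OE on the vertical axis; the diagonal marks equal responses, and 21 genes lie outside the plotted range. The 633 amplified genes lie beyond the diagonal in both directions, the 2460 gained genes line the vertical axis and the 94 reversed genes fill the quadrants of opposite sign.

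The ZIP line is not part of the interaction, but its libraries shared in the fit that called the genes, and with only the 16 other libraries 3451 genes were called, 3173 of the 3537 among them. ZIP responded more like Scr than like OE in 3277 of the 3537 genes, and in 12098 of all 17696. The 3537 were chosen because the responses of OE and Scr lay apart, so these shares are no test of likeness. In the 94 reversed genes ZIP was changed in the direction of Scr in 54 and in that of OE in 0. In the 1084 gained genes above 0 its median response was 0.04, compared with −0.01 in Scr and 0.52 in OE. In the 1376 below 0 it was −0.05, compared with −0.01 in Scr and −0.51 in OE. A Scr response that was not called is part of how this class was defined. ZIP was changed like OE in 348 of the 2460 gained genes. In the 196 lost genes ZIP was changed like Scr in 148. ZIP libraries 1 and 4 stood apart from the other untreated ZIP libraries, with 134 and 33 genes at 1 CPM or more and over 5 times the level in any other, of which 4 and 5 were called in the interaction. As for Scr+Cy library 1, these counts do not show that other results were unchanged. By its median, the ZIP response lay nearer to that of Scr than to that of OE in each of these classes.

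**Figure D2:**
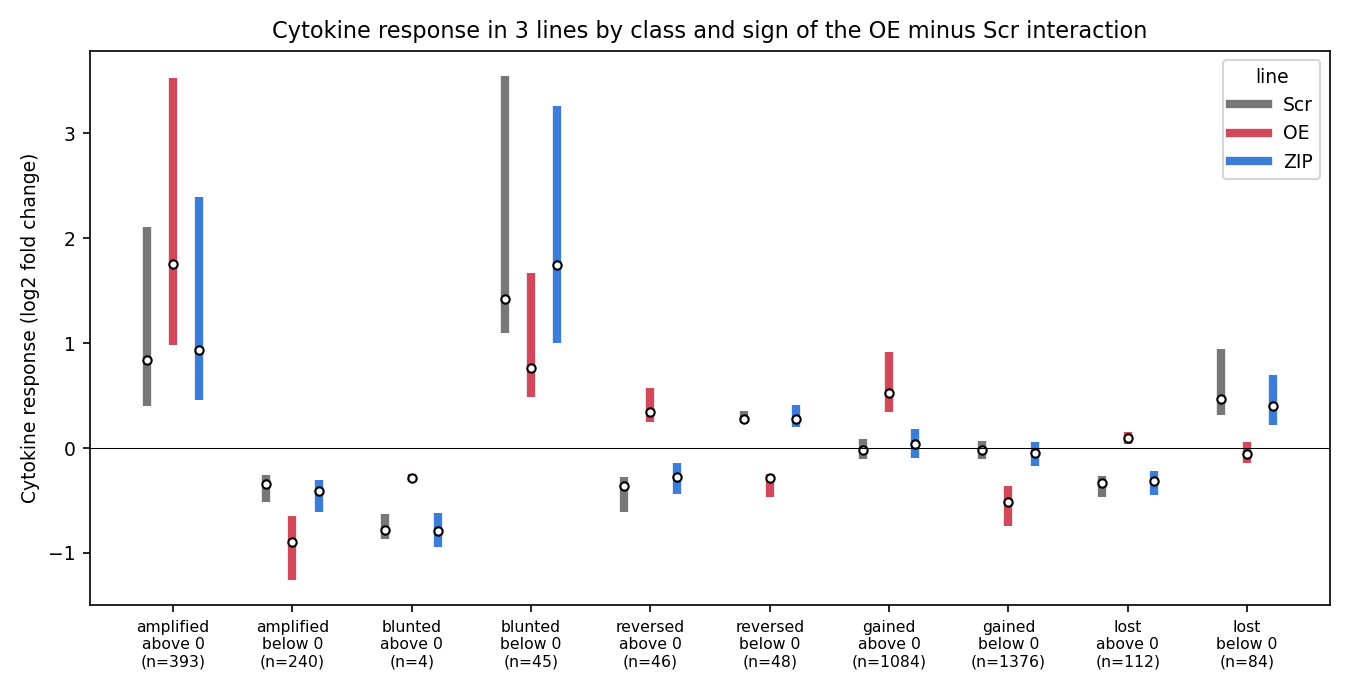
Cytokine response (log2 fold change) of the Scr, OE and ZIP lines in each class, split by the sign of the interaction; circles are medians over genes, bars span the middle 50% of genes and n counts genes. In reversed genes the ZIP medians of −0.27 and 0.27 have the sign of Scr, and in gained genes they lie near 0 like those of Scr.

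Amplified genes that rose numbered 393, with a median rise of 0.84 in Scr, 0.94 in ZIP and 1.75 in OE on the log2 scale. They held much of the interferon program. Parp14, an interferon-induced ADP-ribosyltransferase, was at 19.8, 20.2, 26.5 and 19.9 CPM in Scr libraries 1 to 4 and at 631, 902, 851 and 756 CPM in Scr+Cy. In OE it was at 8.83, 8.60, 9.49 and 9.40 CPM and in OE+Cy at 1267, 1258, 1415 and 1279.7 CPM. OE cells thus started lower and ended higher in every library, and the log2 rise was 5.19 in Scr and 7.17 in OE, an interaction of 1.98 ± 0.22 (SE, adjusted p = 1.97e-06). Bid, a BH3-only activator of apoptosis, stood at 5.21, 4.37, 5.19 and 4.30 CPM in Scr and 16.8, 15.4, 19.0 and 14.2 in Scr+Cy. It stood at 2.66, 3.62, 3.37 and 2.26 CPM in OE and 47.8, 51.3, 64.6 and 52.1 CPM in OE+Cy, again lower without and higher with cytokines (2.39 ± 0.20, adjusted p = 3.45e-08). For Lif, a cytokine of the interleukin-6 family, treated levels did not overlap, with 1.91, 2.51, 2.44 and 1.68 CPM in Scr+Cy and 16.9, 22.4, 25.5 and 20.5 CPM in OE+Cy, from at most 0.434 CPM in any Scr or OE library (4.26 ± 0.42, adjusted p = 4.27e-07).

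A larger log2 rise came about in different ways. Of the 393 genes, 196 were higher in OE+Cy than in Scr+Cy without being lower in OE than in Scr, 131 were lower in OE and not higher in OE+Cy, 64 were both, and 2 were neither. Over all genes, 50.1% differed between the untreated lines, 25.6% being lower in OE, and 53.4% between the treated lines, 26.0% being higher in OE+Cy. Ddx60, an interferon-induced helicase, reached 31.3, 48.6, 42.7 and 40.6 CPM in Scr+Cy and 37.7, 35.0, 43.5 and 39.7 CPM in OE+Cy, levels that overlapped (log2 difference −0.06, adjusted p = 0.747). Its interaction was 3.80 ± 0.62, and 3.43 to 4.50 without single libraries. It came from the untreated cells, at 0.836, 0.632, 1.00 and 0.743 CPM in Scr and 0, 0.0272, 0.110 and 0.0655 CPM in OE, so its size rests on OE levels near 0. Gbp7 and Irgm2, both interferon-induced GTPases, had the same form, with treated differences of −0.42 and 0.09 (adjusted p = 0.215 and 0.822) and untreated ones of −2.61 and −2.11. Ifit3b, an antiviral tetratricopeptide protein, differed in both, with treated levels of 25.5, 56.2, 57.4 and 47.1 CPM in Scr+Cy and 70.5, 89.9, 111 and 119.6 CPM in OE+Cy. H2-Aa, an MHC class II chain, had an interaction of 5.07 ± 1.44 and missed the threshold without Scr library 4 (adjusted p = 0.0513).

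**Figure D3:**
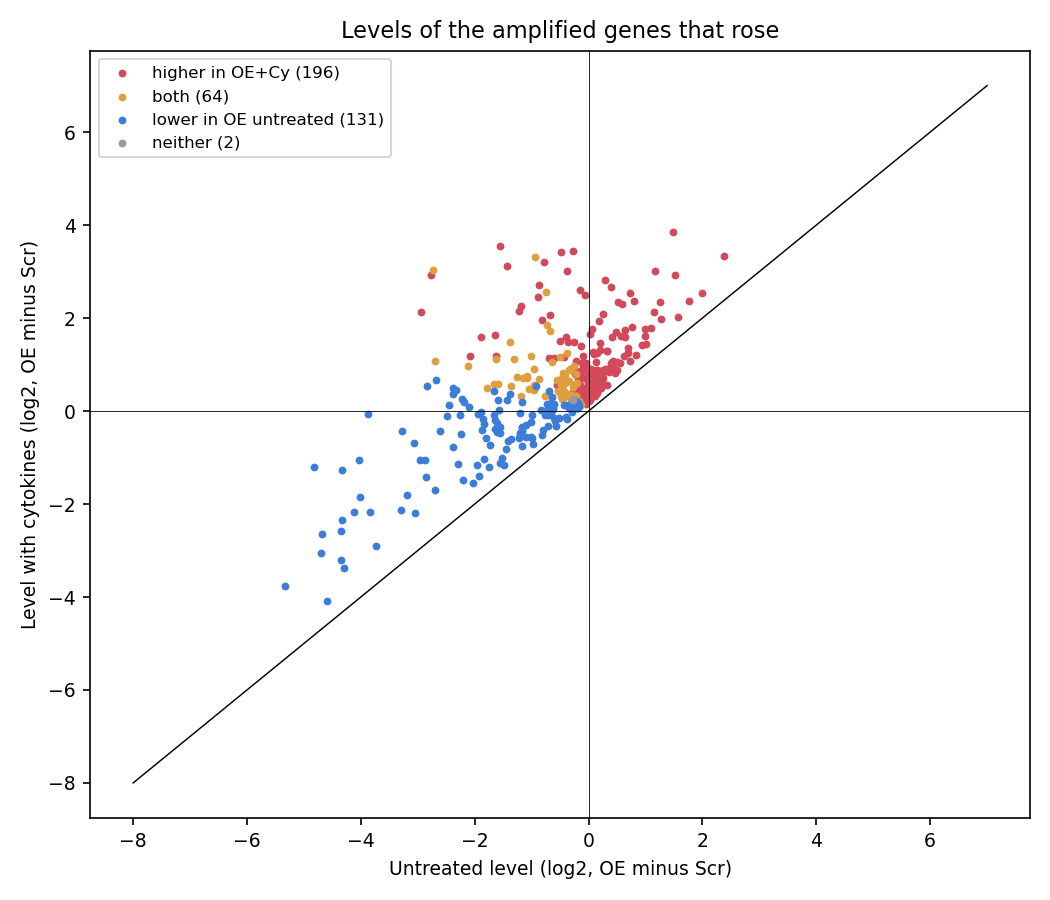
Log2 difference between OE and Scr without cytokines (horizontal) and between OE+Cy and Scr+Cy (vertical) for the 393 amplified genes that rose, one point per gene; the diagonal marks no interaction. The 196 genes called higher only with cytokines lie to the upper right, and the 131 called lower only without cytokines reach down to the lower left.

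Interactions had wider errors among genes with very large rises. In 51 genes with a log2 rise over 5 in both lines and at least 50 CPM in both treated groups, the median untreated level in Scr libraries 1 to 4 was 0.611%, 0.830%, 1.69% and 0.903% of the Scr+Cy mean. In OE libraries it was 0.222%, 0.214%, 0.296% and 0.366% of the OE+Cy mean, below every Scr library. Of the 51 genes, 19 were called above 0 in the interaction and 0 below, where 9.64% and 10.3% of all genes were. The median SE of the 51 was 0.61, compared with 0.12 over all called genes. With cytokines, 26 of the 51 were higher in OE+Cy and 4 lower, where 26.0% and 27.4% of all genes were. The median level of the 51 was 1.59 times that in Scr+Cy. Cxcl10, a T cell attracting chemokine, reached 385, 810.1, 783 and 541 CPM in Scr+Cy and 1458, 1335, 1642 and 1427 CPM in OE+Cy, from 0.135, 2.27, 8.94 and 2.29 CPM in Scr and 0.332, 0.680, 0.800 and 1.87 CPM in OE. Its interaction of 3.11 ± 1.19 missed the threshold (adjusted p = 0.0702), and passed it, among other settings, without Scr library 1 (3.53, adjusted p = 0.0336) and with the block within line (2.94, adjusted p = 0.00119).

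Nos2, the inducible nitric oxide synthase, and Tnf had low untreated levels and larger treated differences. Nos2 stood at 16.8, 24.3, 40.9 and 17.9 CPM in Scr+Cy and 704, 741, 1008 and 712 CPM in OE+Cy, a log2 difference of 4.99 (adjusted p = 5.42e-10), while all 8 untreated libraries held at most 0.655 CPM. The interaction of 3.74 ± 2.32 was not called (adjusted p = 0.287), except with the block within line (adjusted p = 0.0107). Tnf was at 0 in all 4 Scr libraries and in 3 of 4 OE libraries, and at 0.677, 0.551, 1.37 and 0.661 CPM in Scr+Cy and 48.4, 39.4, 64.5 and 56.4 CPM in OE+Cy. Its interaction was not called by edgeR (adjusted p = 0.969) and was by DESeq2 (adjusted p = 0.0146), no fold can be given against 0, and the treated levels differed by 6.0 on the log2 scale (adjusted p = 1.09e-12).

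Amplified genes that fell numbered 240, with median falls of −0.34 in Scr, −0.41 in ZIP and −0.90 in OE. Prmt8, an arginine methyltransferase of neurons, went from 65.4, 56.6, 68.9 and 69.1 CPM in Scr to 51.1, 35.1, 54.3 and 53.0 CPM in Scr+Cy and from 17.3, 16.8, 19.6 and 17.1 CPM in OE to 5.28, 4.84, 4.93 and 5.10 CPM in OE+Cy (−1.39 ± 0.16, adjusted p = 3.82e-06). The log2 fall in OE was larger from a level already lower, while in CPM the fall was 16.6 in Scr and 12.7 in OE. Chrna4, a nicotinic receptor subunit (−1.57), Kcnk9, a potassium channel (−1.38), and Sv2c, a vesicle protein (−1.36), fell further in OE on the log2 scale too. So did Ttr, transthyretin, at −1.32 ± 0.39, which missed the threshold without OE library 1 (−1.05, adjusted p = 0.0529). On the CPM scale 202 of the 240 fell further in OE, which Chrna4, Sv2c, Prmt8 and Ttr did not, and 346 of the 393 that rose gained more there.

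Blunted genes were few, and 45 of the 49 rose, by a median of 1.42 in Scr, 1.75 in ZIP and 0.76 in OE. Without cytokines 31 of the 45 were higher in OE than in Scr, as were 899 of the 1831 genes called below 0 and 24.5% of all genes. The untreated levels are part of the interaction, so this count is a description. C4b, a complement component, was at 0.270, 0.604, 1.09 and 0.341 CPM in Scr and 28.1, 22.6, 27.3 and 26.3 CPM in OE, so that the untreated groups lay far apart. With cytokines it reached 73.8, 114, 104 and 145 CPM in Scr+Cy and 45.1, 64.9, 69.3 and 93.3 CPM in OE+Cy, which overlapped (log2 difference −0.68, adjusted p = 0.0526). Its interaction was −6.19 ± 0.57 (adjusted p = 1.64e-07). Nfkb2, the p100 precursor of noncanonical NF-κB, had the same shape, with 12.5, 11.4, 14 and 10.0 CPM in Scr, 25.1, 23.2, 24.6 and 23.9 CPM in OE, 126, 141, 152 and 105 CPM in Scr+Cy and 139, 129.9, 124 and 121 CPM in OE+Cy (−1.04 ± 0.15, adjusted p = 3.07e-05). Traf3, an adaptor that restrains that pathway (−0.63), Sp140, a nuclear body protein (−2.61), and Il13ra1, an interleukin-13 receptor chain (−1.31), were blunted as well. The scale matters for them, since on the CPM scale 28 of the 45 still gained less in OE, and Il13ra1 gained more there (54.2 CPM against 5.15 CPM in Scr). In 4 genes a fall was blunted, such as Tln2, a cytoskeletal linker, at 65.6, 68.3, 70.5 and 64.1 CPM in Scr, 39.8, 36.3, 34.6 and 36.6 in Scr+Cy, 24.3, 22.4, 25.3 and 23.2 CPM in OE and 17.3, 18.5, 18.9 and 20.9 CPM in OE+Cy (0.54 ± 0.10).

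**Figure D4:**
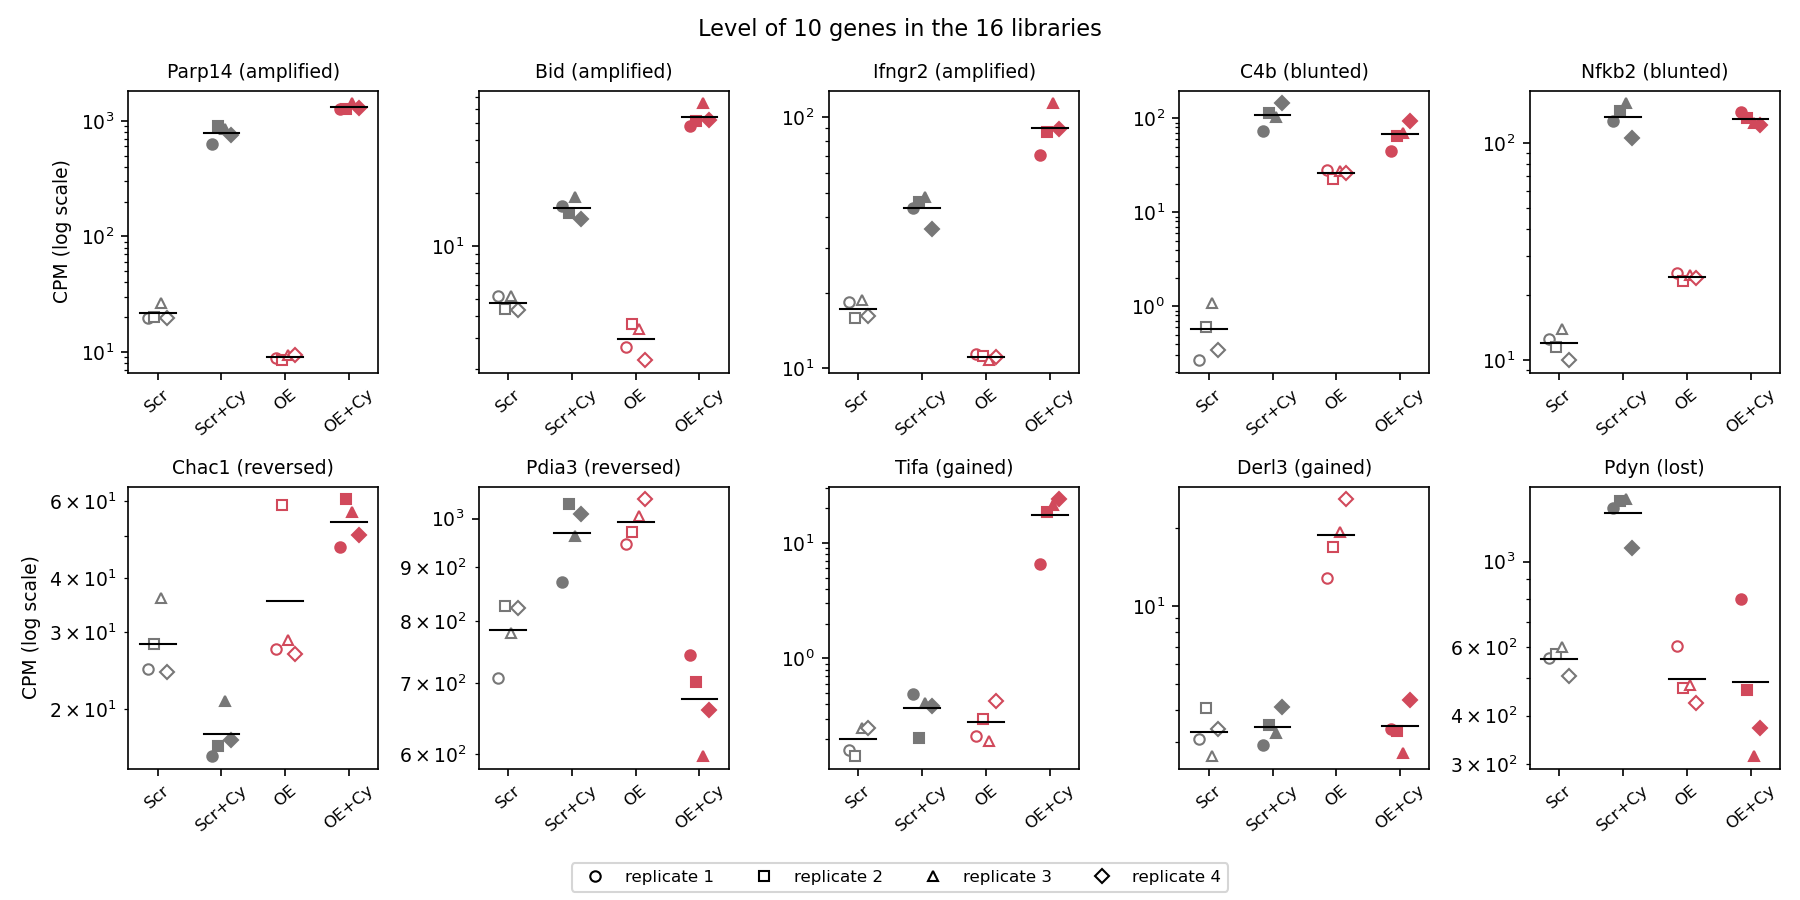
Level (CPM after TMM scaling, log axes that do not start at 0) of 10 genes in the 4 libraries of each group, with the mean of the group as a line and the replicate number as the marker. Parp14, Bid and Ifngr2 start lower and end higher in OE, C4b and Nfkb2 start higher in OE and overlap with Scr+Cy after treatment, and Chac1 and Pdia3 move in opposite directions in both lines.

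Of the reversed genes, 46 fell in Scr and rose in OE, by medians of −0.36 and 0.35. Those named here without an error were chosen after their values were seen, from no list, and no count of their kind was made. Chac1, which degrades glutathione, was at 24.6, 28.2, 35.9 and 24.3 CPM in Scr and 15.6, 16.5, 20.9 and 17.0 in Scr+Cy, with no overlap. It was at 27.4, 58.8, 28.8 and 26.7 CPM in OE and 47.1, 60.6, 56.5 and 50.3 CPM in OE+Cy, where OE library 2 lay among the treated values (1.29 ± 0.28, adjusted p = 0.00217). Eif4ebp1, a brake on translation, had the same outlying OE library, at 20.5, 36.1, 20.4 and 19.8 CPM in OE and 37.6, 48.8, 52.1 and 46.1 CPM in OE+Cy, compared with 28.8, 18.3, 28.3 and 24.0 CPM in Scr and 18.2, 14.5, 18.3 and 17.1 in Scr+Cy (1.48 ± 0.26). Phgdh and Psph, enzymes of serine synthesis, had interactions of 1.15 and 0.85, Gpt2, a transaminase, 1.14, Slc1a4, a neutral amino acid carrier, 1.08, Pck2, the mitochondrial phosphoenolpyruvate carboxykinase, 0.75, and Iars, an isoleucine tRNA ligase, 0.53. Adcy1, an adenylate cyclase, turned from 41.2, 32.8, 45.6 and 46.3 CPM in Scr to 23.6, 17.6, 29.2 and 23.5 CPM in Scr+Cy, and from 59.0, 64.1, 71.2 and 81.2 CPM in OE to 79.5, 102, 116 and 118 CPM in OE+Cy (1.42 ± 0.20, adjusted p = 3.17e-05).

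The other 48 reversed genes rose in Scr and fell in OE, by medians of 0.28 and −0.29. Pdia3, a disulphide isomerase of the ER, stood at 708, 828, 780.0 and 824 CPM in Scr and 871, 1032, 963 and 1009 in Scr+Cy, and at 947, 972, 1005 and 1042 CPM in OE and 743, 701, 598 and 661 CPM in OE+Cy (−0.86 ± 0.14, adjusted p = 0.000140). Edem2, a mannosidase that marks misfolded glycoproteins for disposal, moved from 89.2, 90.2, 83.8 and 81.1 to 104, 103, 105 and 101 CPM in the Scr line and from 123, 115, 112 and 112 to 74.7, 68.1, 55.9 and 69.3 CPM in the OE line, with no overlap within either line (−1.05 ± 0.13). Others among the 48, also chosen after their values were seen and from no list, were Sec23b (−0.86), a coat protein of transport vesicles, Erp44 (−0.84), Fkbp14 (−0.85) and Edem1 (−0.56). Fen1, Rpa2, Orc1 and Mcm5, all of DNA replication and chosen likewise, had interactions of −0.78, −0.72, −0.62 and −0.45. Il1r1, the signalling receptor of IL-1, was reversed too (−0.74). The number of reversed genes depended on single control libraries, with 57 without Scr+Cy library 2 and 62 without Scr library 1, and 32 had responses of at least 1.5-fold at an unadjusted p under 0.05 in both lines.

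Gained responses made up most of the interaction. Of the 2460 genes, 1084 rose in OE by a median of 0.52 and 1376 fell by a median of −0.51. Tifa, an adaptor that binds TRAF6, was at 0.162, 0.144, 0.250 and 0.248 CPM in Scr, 0.493, 0.207, 0.412 and 0.390 in Scr+Cy and 0.212, 0.299, 0.193 and 0.426 CPM in OE. In OE+Cy it was at 6.50, 18.5, 21.3 and 23.8 CPM, above every other library (5.04 ± 0.76, adjusted p = 6.74e-05). Irak2, an IRAK family kinase, rose from 3.78, 2.26, 2.704 and 2.72 CPM in OE to 9.83, 14, 19.8 and 11.1 CPM in OE+Cy and was at 3.10, 3.22, 2.78 and 2.35 CPM in Scr and 3.54, 3.96, 3.09 and 4.02 in Scr+Cy (1.91 ± 0.25). Ccl28, a mucosal chemokine (3.70), and Adam8, a membrane metalloprotease (2.99), were further cases. Myh14, a non-muscle myosin, differed in kind, since cytokines brought it from 1.72, 1.99, 1.30 and 1.93 CPM in OE to 16.9, 18.2, 22.5 and 21.14 CPM in OE+Cy, still lower than the 27.3, 20.3, 27.5 and 23.9 CPM of Scr+Cy by −0.33 (adjusted p = 0.0205). Its interaction had the smallest p of the genes named by rule (3.62 ± 0.19, adjusted p = 1.56e-11). Derl3, an ER protein that helps to extract misfolded proteins, fell from 12.8, 17.0, 19.4 and 25.9 CPM in OE to 3.37, 3.32, 2.72 and 4.37 CPM in OE+Cy, where it met the 3.08, 4.05, 2.66 and 3.38 CPM of Scr and 2.93, 3.48, 3.26 and 4.09 CPM of Scr+Cy (−2.51 ± 0.36, adjusted p = 4.01e-05).

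Lost responses were called in 196 genes, of which 112 had an interaction above 0 (median response −0.33 in Scr and 0.10 in OE) and 84 below 0 (0.47 in Scr and −0.06 in OE). Pdyn, the dynorphin precursor, went from 563, 578, 601 and 505 CPM in Scr to 1378, 1429.8, 1447 and 1082 CPM in Scr+Cy, while OE libraries at 604, 472, 480.4 and 431 CPM and OE+Cy libraries at 802, 465, 315 and 373 CPM overlapped (−1.27 ± 0.27). Hgsnat, a lysosomal acetyltransferase, fell from 171, 175, 144 and 124 CPM in Scr to 69.7, 60.8, 56.2 and 57.3 CPM in Scr+Cy but was at 42.1, 43.7, 41.7 and 37.9 CPM in OE and 37.2, 37.4, 38.5 and 36.6 CPM in OE+Cy (1.19 ± 0.12, adjusted p = 3.56e-07). Bok, a BCL2 family member (−1.06), and Ffar2, a receptor for short-chain fatty acids (−1.10), lost a rise.

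Gene lists, 20 in number, were then read along the pathway, each by the number of its measured members called in the interaction beside the 20.0% of all genes and by its median beside 0.0048 for all genes. Members named in addition to the 2 with the smallest p in each list were chosen after their values were seen. Of 21 receptors and proximal signalling genes 10 were called, 7 above 0 and 3 below. Ifngr2, the signalling chain of the IFNγ receptor, was at 18.4, 15.9, 18.7 and 16.1 CPM in Scr, 43.4, 45.7, 48.0 and 35.8 in Scr+Cy, 11.4, 11.2, 10.8 and 11.1 CPM in OE and 70.2, 87.3, 113 and 89.5 CPM in OE+Cy (1.69 ± 0.16, adjusted p = 2.39e-07). The kinases Irak4 (1.29) and Jak2 (0.86), the adaptor Myd88 (0.48) and the TNF receptor Tnfrsf1a (0.46) were amplified, whereas Il1r1 was reversed and Map3k7, the kinase TAK1 (−0.19), fell in OE alone.

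Irak1 and Traf6, the classic targets of the microRNA, did not share a pattern. Irak1 was at 173, 183, 158 and 166 CPM in Scr, 162, 165, 149 and 146 in Scr+Cy, 248, 252, 243 and 241 CPM in OE and 187, 193, 166 and 177 CPM in OE+Cy. It was thus highest in untreated OE cells and fell with cytokines there, an interaction of −0.31 ± 0.09 (adjusted p = 0.0138). Traf6 was lower in OE than in Scr both without cytokines (−0.31, adjusted p = 3.35e-05) and with them (−0.31, adjusted p = 3.17e-05). Its responses of 0.10 in Scr and 0.10 in OE were not called, and neither was their difference (SE 0.08). Of the 11 predicted targets and reference genes the study names, 6 were called, Nrg1 (1.16) and Perp (0.55) above 0 and Mapt (−0.75), Eya1 (−0.43), Glrx (−0.34) and Gpx1 (−0.34) below. The list's median was −0.10, and without OE library 4 the number called was 3. Of 24 settings, the call of Gpx1 changed in 11, that of Eya1 in 9 and that of Glrx in 2.

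Of 24 NF-κB regulators and subunits 9 were called, 7 above 0 and 2 below, with a median of 0.32 over 23 genes. A median over fewer genes than its list leaves out those with at most 3 reads in every Scr or every OE library. Zc3h12a, an RNase that limits cytokine transcripts (2.76), Ikbke, an IκB kinase (1.22), Birc3, a ubiquitin ligase (1.04), Tnip1, a partner of A20 (0.90), and Rela, the p65 subunit (0.46), were amplified, while Nfkb2 and Traf3 of the noncanonical arm were blunted. Nfkbia, the inhibitor IκBα (0.32), and Tnfaip3, which encodes A20 (0.42), were not called. Of 26 JAK-STAT factors and brakes 13 were called, 12 above 0, with a median of 0.38 over 24 genes. Irf1, an early IFNγ target, was at 365, 424, 433 and 425 CPM in Scr+Cy and 662, 657, 810.4 and 789 CPM in OE+Cy (1.28 ± 0.13, adjusted p = 1.09e-06). The brake Socs1 was amplified as well (2.00), and Socs2 fell in OE alone (−0.67). Of 23 immediate early and C/EBP factors 8 were called, all above 0, among them Cebpd (2.39), Cebpb (1.32), Jun (1.10) and Myc (0.99).

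Secreted products were called no more often than all genes. Of 19 chemokines 18 had an interaction above 0, but 11 had a group with at most 3 reads in each library and only Ccl28 was called. The block within line called 5 chemokines and DESeq2 called 4, and edgeR called 2 without any one of OE library 4, Scr libraries 1, 2 or 4, or Scr+Cy library 3. Of 21 cytokines and growth factors 4 were called (19.0%, compared with 20.0% of all genes), all above 0. They were Lif, Csf1, a macrophage growth factor (1.66), Il23a (2.50) and Il1b (1.48). Here too 11 of the 21 had a group with at most 3 reads in each library. Of 25 genes of nitric oxide, arginine and the acute phase 3 were called, the arginine carrier Slc7a1 above 0 (0.65) and the carrier Slc7a2 (−0.45) and Asl, argininosuccinate lyase (−0.44), below. The number was 11 with the block within line, 7 with DESeq2 and 5 without OE+Cy library 1. C3, a complement component, rose by 6.60 in Scr and 6.74 in OE and was not called.

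Effectors of interferon were often amplified. Of 36 antiviral genes 21 were called, 20 of them amplified and Ifi27 blunted (−0.43), with a median of 1.23 over 35 genes. Isg15, a ubiquitin-like modifier (2.82), Xaf1 (3.09) and Ifit3 (3.28) were among them, whereas the RNA sensors Ifih1 (−0.07) and Ddx58 (0.10) were not called. All 17 GBP and IRG GTPases, which attack vacuoles of pathogens, rose in both lines and all 17 had an interaction above 0, of which 7 were called. This number was unstable, at 15 with the block within line, 11 without Scr library 1, 4 without Scr+Cy library 1 or 4 or OE+Cy library 2, 3 without OE library 1 or 2 or OE+Cy library 3, and 2 without Scr library 3. In 4 of the 17 GTPases a group had at most 3 reads in each library. Of those called, Gbp5, Gbp6 and Tgtp1 were higher in OE+Cy than in Scr+Cy. Levels with cytokines of Gbp3, Gbp7, Igtp and Irgm2 were not called different (edgeR adjusted p = 0.323, 0.215, 0.874 and 0.822). Reads of close paralogs such as the Gbp, Ifit, Oas and H2 genes may have been divided between them.

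Antigen presentation by MHC class I was divided. Of 23 genes 15 were called, 10 above 0 and 5 below. The peptide transporter Tap2 reached 107, 120.5, 126 and 111 CPM in Scr+Cy and 146, 156, 163 and 192 CPM in OE+Cy from 11.9, 10.6, 10.8 and 7.84 CPM in Scr and 2.66, 3.16, 2.98 and 3.11 CPM in OE (2.29 ± 0.17, adjusted p = 1.14e-08). The immunoproteasome subunits Psmb8 (2.49) and Psmb9 (2.58) and the transactivator Nlrc5 (2.16) were amplified. Unlike Tap2, their levels with cytokines were not called different between OE+Cy and Scr+Cy. The log2 differences were 0.26, 0.12 and −0.10 (edgeR adjusted p = 0.289, 0.488 and 0.734). The heavy chain genes H2-K1 (−0.71) and H2-T22 (−0.76) were blunted, and the ER chaperones Calr (−0.98) and Canx (−0.45) fell in OE alone. Of 14 MHC class II genes 2 were called, H2-Aa and the thiol reductase Ifi30 (0.64), with 7 by DESeq2 and by the block within line, 5 without OE+Cy library 1 and 1 without Scr library 4. Of 23 immune surface genes 7 were called, all above 0, among them Ly6e (2.25), Cd40 (2.52) and Cd47, a signal against phagocytosis (0.63).

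Of 30 cell death genes 16 were called, 12 above 0 and 4 below, with a median of 0.25 over 28 genes. Apart from Bid, the BH3-only genes Hrk (1.91), Bik (1.80), Bbc3 (0.72) and Bcl2l11 (0.54) rose in OE alone, while Bad (0.20), Bmf (−0.40) and Pmaip1, with at most 3 reads in each of the 16 libraries, were not called. The anti-apoptotic Bcl2l1 also rose in OE alone (0.23), and Gsdmd, the pore former of pyroptosis (1.45), was amplified. The 4 below 0 were Bok, Cflar (−0.54), which restrains caspase 8, and the anti-apoptotic Mcl1 (−0.39) and Bcl2 (−0.31).

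**Figure D5:**
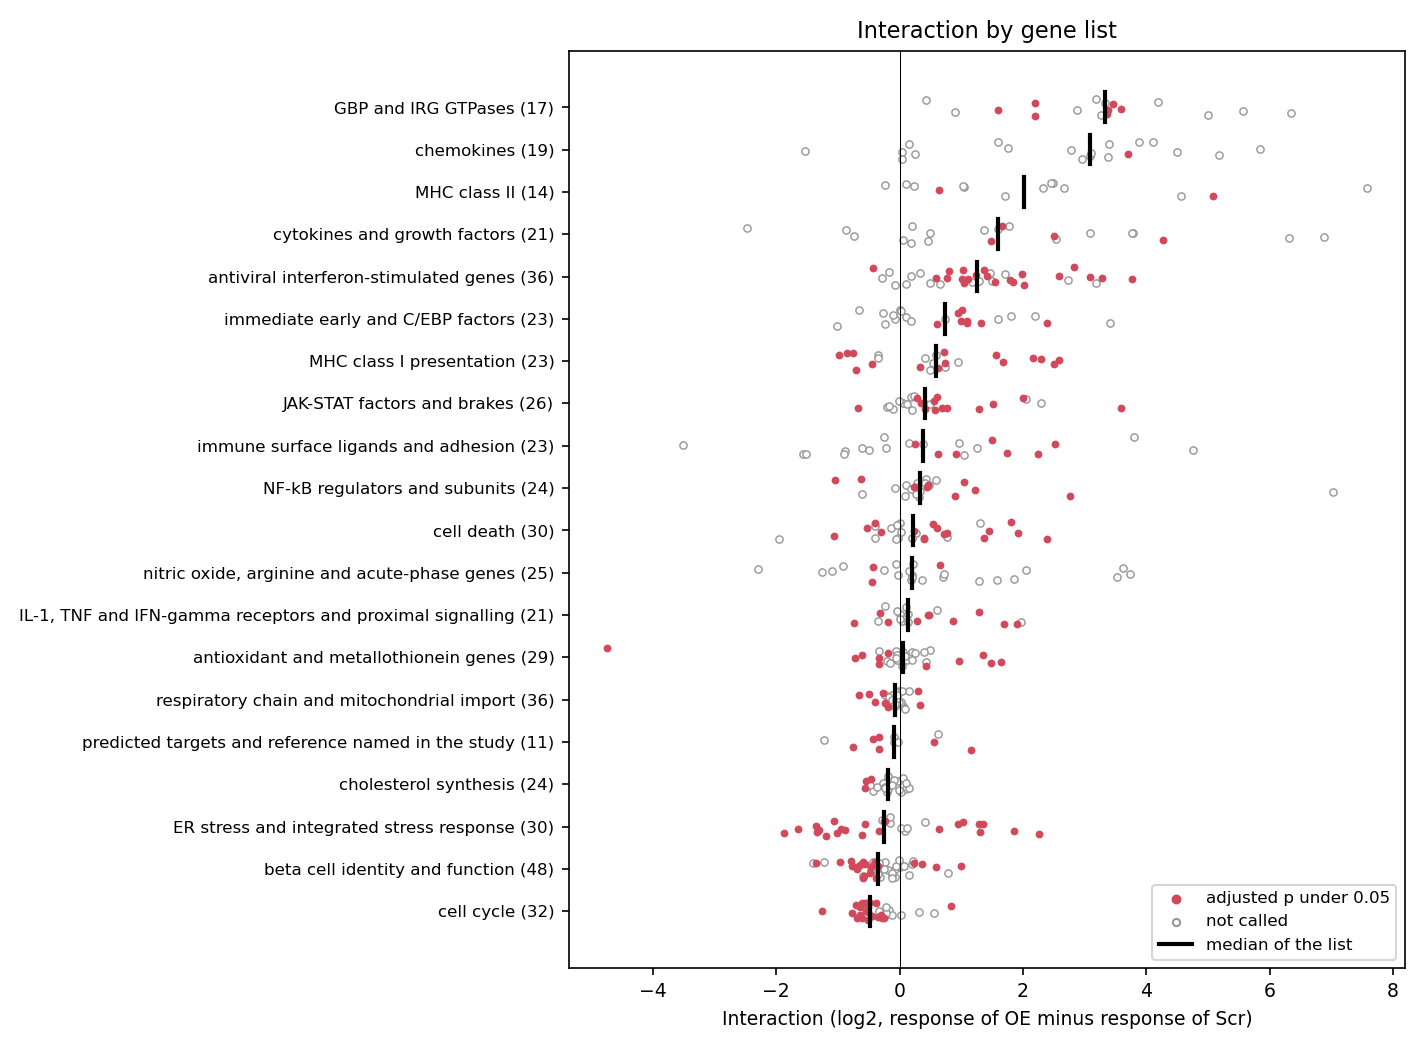
Interaction (log2, response of OE minus response of Scr) of each measured member of 20 gene lists, with filled points for genes called at an adjusted p under 0.05 and a bar at the median of all measured members, including those with a group of at most 3 reads. Interferon lists lie to the right, the cell cycle and beta cell lists to the left, and the ER list reaches from −1.88 to 2.26.

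The ER stress and integrated stress response list was divided, with 23 of 30 genes called, 8 above 0 and 15 below. The 15 fell in OE and were mainly chaperones and disposal factors. Of the 15, only Edem1, which was reversed, had a called change in Scr. A missed threshold does not show that Scr was unresponsive, and for Sdf2l1 every Scr+Cy library lay above every Scr library. Sdf2l1, a cochaperone, was at 113, 121, 101 and 113 CPM in Scr and 128, 149.6, 134 and 149.8 in Scr+Cy and fell from 186, 217, 227 and 253 CPM in OE to 87.2, 77.2, 53.9 and 81.7 CPM in OE+Cy (−1.88 ± 0.24, adjusted p = 9.63e-06). Hspa5, the chaperone BiP (−1.07), Hsp90b1, which encodes GRP94 (−1.01), Dnajc3 (−1.30), Creld2 (−1.65), Pdia6 (−1.34) and the transcription factor Xbp1 (−0.62) also fell in OE with no called change in Scr. The 8 above 0 were Trib3 (2.26), Atf3 (1.85), Ddit3, which encodes CHOP (1.35), Atf5 (1.30), Chac1, Sesn2 (1.03), Ppp1r15a (0.95) and Asns, asparagine synthetase (0.64), genes of the branch that follows phosphorylation of eIF2α. Atf4 itself was not called (0.41).

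Promoters were searched on both strands, from 250 bases before to 50 after the RefSeq start, for 4 short motifs, after the classes were known. The ER stress response element, CCAAT and CCACG with any 9 bases between them, stood in the promoters of 24 tested genes, 0.173% of the 13884 that matched a promoter and 0.119% of all 32851. Of the 24, 12 belonged to the gained genes below 0, 1.08% of their 1116 promoters, and 7 to the ER list of 27 promoters. Derl3 and Creld2, shown on their sense strand of GRCm38.p6 at chr10:75893148-75893447 and chr15:88819396-88819695 because both fell in OE alone, each hold it once, in capitals on the opposite strand.
Derl3: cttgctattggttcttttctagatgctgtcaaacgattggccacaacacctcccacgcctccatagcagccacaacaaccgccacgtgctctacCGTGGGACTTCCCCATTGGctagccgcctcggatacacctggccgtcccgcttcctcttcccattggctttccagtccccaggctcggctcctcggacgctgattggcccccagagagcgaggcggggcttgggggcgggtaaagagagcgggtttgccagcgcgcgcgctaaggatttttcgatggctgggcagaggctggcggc
Creld2: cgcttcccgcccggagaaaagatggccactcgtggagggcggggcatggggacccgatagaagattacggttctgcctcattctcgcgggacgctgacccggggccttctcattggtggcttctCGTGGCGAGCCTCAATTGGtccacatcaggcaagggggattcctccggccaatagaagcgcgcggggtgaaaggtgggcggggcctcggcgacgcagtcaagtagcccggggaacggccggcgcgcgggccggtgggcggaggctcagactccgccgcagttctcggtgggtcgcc
The interferon element, GAAA and GAAA with any 2 bases between them, stood in 46 of the 318 promoters of amplified genes that rose (14.5%), compared with 3.67% of tested genes and 3.44% of all promoters. It also stood in 4 of the 36 of blunted genes that rose (11.1%) and 7 of the 61 of lost genes below 0 (11.5%). Ifit3b at chr19:34607707-34608006, one of the largest amplified rises, holds it at 2 places, also on the opposite strand.
Ifit3b: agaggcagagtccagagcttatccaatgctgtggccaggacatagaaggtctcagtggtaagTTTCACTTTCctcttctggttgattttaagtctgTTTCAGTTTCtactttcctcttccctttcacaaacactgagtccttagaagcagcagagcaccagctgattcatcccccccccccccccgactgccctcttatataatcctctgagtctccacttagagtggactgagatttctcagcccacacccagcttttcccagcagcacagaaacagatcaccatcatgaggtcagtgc
The κB motif, GGG and TTTCC with any 2 bases between them, stood in 4 of the 36 promoters of blunted genes that rose (11.1%), compared with 2.00% of tested genes, and in 7 of the 318 of amplified genes that rose (2.20%). Nfkb2 at chr19:46304487-46304786 is one of the 4.
Nfkb2: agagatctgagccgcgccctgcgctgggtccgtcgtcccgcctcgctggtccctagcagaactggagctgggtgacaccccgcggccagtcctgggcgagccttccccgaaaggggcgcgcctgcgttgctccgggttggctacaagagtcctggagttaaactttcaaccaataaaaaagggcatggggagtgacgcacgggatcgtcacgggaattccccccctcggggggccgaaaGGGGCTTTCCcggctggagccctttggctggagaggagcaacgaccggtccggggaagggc
The STAT motif TTCNNNGAA stood in 8.36% of tested genes and in 10.7% of the amplified genes that rose. A match is a run of letters, and binding was not measured.

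Genes of the mature β cell were mostly below 0 where called. Of 48 genes of β cell identity and function 27 were not called and 21 were, 17 below 0 and 4 above, with a median of −0.35, and the block within line called 35. Pdx1, a master regulator of the insulin genes, was at 853, 806, 855 and 782 CPM in Scr and 766, 750.3, 783 and 774 in Scr+Cy, and fell from 590.2, 614, 672 and 631 CPM in OE to 354, 332, 307 and 355 CPM in OE+Cy, below every other library (−0.79 ± 0.09, adjusted p = 1.82e-06). Ins1 was at 811, 623, 528 and 735 CPM in Scr, 683, 603, 576 and 819.7 in Scr+Cy, 6737, 7547, 7700.4 and 8709 CPM in OE and 5001, 4475, 3471 and 5695 CPM in OE+Cy. It thus fell in OE alone (−0.71 ± 0.19, adjusted p = 0.0104) and stayed above all Scr-line libraries. Ins2 fell in OE from 19148, 18856, 17630.3 and 19882 CPM to 12743, 9742, 8592 and 12200.3 CPM, into the range of Scr at 13768, 11077, 9302 and 9586 CPM and Scr+Cy at 9638, 9318, 8501 and 9606 CPM (−0.56 ± 0.15, adjusted p = 0.0113). Mafa (−0.59) fell further in OE, and the granule protein Chga (−0.64) and the receptor Ffar1 (−0.59) fell there alone. Sums of the 8 β cell markers were 16263 to 17722 CPM in Scr+Cy and 24155 to 31377 CPM in OE+Cy. Sums of the 4 measured α cell markers were also lower with cytokines, at 1528 to 1981 CPM in Scr, 869 to 1099 in Scr+Cy, 601 to 1155 CPM in OE and 98.4 to 371 CPM in OE+Cy, and their part in the result was not tested. The 4 above 0 act in exocytosis or its electrical trigger, namely Syt7 (0.99), Stx1a (0.60), Abcc8 (0.37) and Rims2 (0.23), which lay just inside the threshold (adjusted p = 0.0499). Exocytosis genes went both ways, since Rab3a, Sytl4 and Rab27a were called below 0.

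Proliferation genes had the lowest median of the 20 lists, −0.47, with 23 of 32 called and 22 of these below 0. Rrm2, which supplies deoxynucleotides, was at 78.0, 94.7, 103 and 102 CPM in Scr and 90.6, 97.6, 107 and 102 in Scr+Cy, and fell from 164, 171, 168 and 189.9 CPM in OE to 85.1, 78.0, 63.1 and 79.2 CPM in OE+Cy (−1.26 ± 0.15, adjusted p = 4.30e-06). The cyclins Ccne1 (−0.77), Ccna2 (−0.69) and Ccnb1 (−0.56) and the kinase Cdk1 (−0.65) fell in OE alone, and the exception was the inhibitor Cdkn1a, which rose there (0.83). In bulk libraries, fewer cells of a kind and less RNA per cell cannot be told apart.

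The remaining lists had medians nearer 0, at 0.06, −0.08 and −0.20. Of 29 antioxidant genes 11 were called, 5 above 0 and 6 below, with catalase, Cat (1.64), and heme oxygenase, Hmox1 (1.36), above and thioredoxin reductase 2, Txnrd2 (−0.72), and Prdx4 (−0.61) below. The number was 17 with the block within line, 7 without OE library 1 or 3, Scr library 3 or Scr+Cy library 2, and 6 without OE library 4, OE+Cy library 3 or both number 1 libraries of the Scr line. Of 36 genes of the respiratory chain and mitochondrial import 8 were called, 6 of them below 0, among them the complex I subunit Ndufa1 (−0.51). That number was 13 with the block within line, 5 without OE library 1, OE+Cy library 2 or 4, Scr library 1 or Scr+Cy library 3, and 4 without OE library 2 or OE+Cy library 3. Of 24 genes of cholesterol synthesis 3 were called, Ebp (−0.56), Insig1 (−0.55) and Stard4 (−0.46), all below 0, with 11 by the block within line.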

How the data were processed

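RNA-seq was measured in 24 libraries of stable MIN6 lines, 4 in each of 6 groups taken from the labels. By the study's methods, STAR alignment to mm10 was followed by quantification against RefSeq transcripts in Partek Flow and removal of genes under 10 reads in total. Per the labels, the versions were STAR 2.7.8a and Partek 11.0.24.0204, while the methods name earlier ones. The quantifier and its use of strand are not given in the sources used here. The deposited values are estimated counts for each gene, not normalized by the authors (30.3% not whole), beside them, as a normalized signal, the same counts divided by a factor per library, which was not tested.

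Counts were rounded, and all 17696 genes were fitted with 6 group means in edgeR 4.0.16 (TMM, glmQLFit and glmQLFTest, R 4.3.3). Genes were called at a Benjamini-Hochberg adjusted p under 0.05 over all genes, and an SE is the log2 value divided by the square root of F. A group with at most 3 reads in every library was taken as at the floor. Counting error alone sets that floor. The script was tested on simulated data. The method of the study, DESeq2 (1.42.0), was an alternative, with other size factors, filterByExpr, a fit of 16 libraries, blocks on the replicate number and leaving out libraries.

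Libraries of one number deviated together within a line over 12670 genes, with correlations of 0.413 to 0.626 between Scr and Scr+Cy and 0.162 to 0.455 between OE and OE+Cy. Across lines this depended on the number. Between Scr and OE the correlations were 0.295, −0.129, 0.211 and 0.236 for numbers 1 to 4. They were 0.228, −0.111, 0.125 and 0.201 between Scr+Cy and OE, and 0.00063 to 0.165 between Scr+Cy and OE+Cy. The labels share the numbers and P65 to P68, which they do not explain.

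Genes named are the 5 of largest interaction per class and sign (at least 10 CPM in a group and over 3 reads in a library of each group), the 2 called members of smallest p per list, the predicted targets of the study, Irak1, Traf6, Cxcl10, Nos2, Tnf, Ins1 and Ins2. Some genes that the rule selects are not reported here. Members and lists were chosen with earlier results of these data known, and other genes named were chosen after their values were seen. Promoters and the microRNA are RefSeq sequences on GRCm38.p6, and 13884 genes matched a promoter by symbol.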

Additional observations from a re-analysis of the deposited data

Results flagged for a closer look

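Across the named genes, 377 groups of 4 libraries were examined for a library far from the other 3, and 21 were found, where chance alone gives about 1 in 20. In Scr these were Arl4c in library 4 (40.8 CPM), Traf3 in library 1 (50.3 CPM), Parp14 in library 3 (26.5 CPM) and Glrx in library 1 (96.7 CPM). In Scr+Cy, library 1 stood off for Lgi1 (1.85 CPM), Dlg2 (12.7 CPM), Irf1 (365 CPM) and Glrx (92.7 CPM), library 2 for Prmt8 (35.1 CPM), library 3 for Tnf (1.37 CPM) and library 4 for Traf3 (84.4 CPM). In OE, library 1 stood off for Il13ra1 (42.2 CPM), Ccl28 (2.84 CPM) and Asl (23.9 CPM), and library 2 for Eif4ebp1 (36.1 CPM), Chac1 (58.8 CPM) and Hmox1 (30.9 CPM). In OE+Cy, library 1 stood off for Tmem150c (21.5 CPM) and library 3 for Parp14 (1415 CPM), Txnrd2 (12.9 CPM) and Nos2 (1008 CPM). Chac1 and Eif4ebp1, both reversed, share OE library 2, and their interactions without any one library lay between 1.13 and 1.67 and between 1.39 and 1.76.

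By the interaction test, the cytokine response differed between OE and Scr in 633 amplified, 49 blunted, 94 reversed, 2460 gained and 196 lost genes.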

How the results depend on the processing

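Of 3537 genes called in the interaction, 3442 stayed called with DESeq2's size factors in edgeR, 3483 with DESeq2, 3496 with filterByExpr and 3173 with only the 16 libraries, none of them with another sign. The replicate block, the number as 1 term over all lines, gave 954 amplified, 185 reversed and 299 lost genes. The replicate block within line, which also leaves out the 8 ZIP libraries, gave 5482 genes (3187 below 0, with 41.9% above 0, as against 41.7% in the 16 libraries without the block), 1372 amplified, 126 blunted, 389 reversed and 429 lost genes, a Scr response of 4878 genes in place of 3151, and members called of 5 chemokines, 11 nitric oxide, 15 GBP and IRG, 7 MHC class II, 17 antioxidant, 35 beta cell, 11 cholesterol and 13 respiratory genes; it moved no other count over 1.5 times. DESeq2 called 4 chemokines, 7 nitric oxide and 7 MHC class II genes. A fold of at least 1.5 left 2140 genes at an unadjusted p under 0.05 (985 below 0) and 1517 at an adjusted one (802 above and 715 below 0), and asked of both responses it left 302 amplified, 28 blunted, 32 reversed, 1270 gained and 80 lost genes. On the CPM scale 32 of the 49 blunted genes kept their sign.

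Leaving out 1 library at a time gave 2819 to 4018 called genes (1158 to 1934 above and 1524 to 2084 below 0), 475 to 763 amplified, 34 to 54 blunted, 57 to 131 reversed, 1919 to 2733 gained and 145 to 228 lost genes. Responses ranged from 2500 to 2991 genes in Scr, 7100 to 7882 in OE and 3800 to 4625 in ZIP. Members called ranged from 1 to 2 chemokines, 2 to 5 nitric oxide, 2 to 11 GBP and IRG, 1 to 5 MHC class II, 6 to 11 antioxidant, 4 to 8 respiratory and 3 to 6 predicted target genes. Chosen after seeing the data, leaving out both number 1 libraries of the Scr line gave 2915 genes and 6 antioxidant members. The classes then held 442 amplified, 46 blunted, 70 reversed, 2143 gained and 149 lost genes. Leaving out all number 1 libraries, also chosen after seeing the data, gave 3308 genes, with Irak1 no longer called (edgeR adjusted p = 0.0726).

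Of 102 genes named by the rule, 84 kept their call under all 24 settings. Near 0, Traf6 changed sign with DESeq2's size factors (0.014), DESeq2 (0.013), filterByExpr (0.0040), all number 1 libraries left out (0.047) and both of the Scr line left out (0.020), with −0.031 to 0.024 without single libraries; Brsk2 with 0.054 and 0.021 and with −0.28 to 0.19; and Acvr2b with −0.080 to 0.034. The causes were not tested. At this depth no fold could be given against groups with at most 3 reads in every library, as in 11 of 19 chemokines.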
